A study of Mus musculus with 8 samples.

Results

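The ABCA genes encode the A subfamily of ATP-binding cassette transporters, large membrane proteins that move lipids across or out of membranes at the cost of ATP. The 9 members examined here, Abca1, Abca2, Abca3, Abca5, Abca6, Abca7, Abca8a, Abca8b and Abca9, are rows of a table of 24972 genes. They were chosen by name, and Abca6 led the choice because its level was low in the double mutant, with its neighbours Abca5, Abca8a, Abca8b and Abca9 taken from the same gene cluster. The values that chose them are therefore those of the double mutant against wild type, and members' values in that comparison are given as a description with no test. The same holds for Abca6 in every comparison that includes the double mutant. Of the 9, 8 had a mean of at least 10 normalized counts and entered the tests, and Abca8a did not.

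RNA was sequenced from untreated primary mouse embryonic fibroblasts, the fibroblast-rich cultures that grow out of dissociated embryos, taken at embryonic day 14 and passaged 2 times. There were 2 libraries for each of 4 genotypes. WT cells carried neither mutation, and Tfam+/- cells had lost 1 allele of Tfam, which encodes the main packaging and transcription factor of mitochondrial DNA. Zbp1-/- cells lacked Zbp1, a sensor of unusual nucleic acids in innate immunity, and Tfam+/-Zbp1-/- cells carried both mutations, so the double mutant keeps 1 Tfam allele. The labels do not say whether both libraries of a genotype are from different embryos, and p-values measure only the spread between these libraries, which may be technical.

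ABCA1 passes cholesterol and phospholipid from the plasma membrane to lipid-poor apolipoproteins and is the classic target of the liver X receptors, which sense oxysterols and also drive Abcg1, Mylip and other sterol genes. ABCA3 loads phospholipid into the lamellar bodies of the lung, ABCA2 is known for sphingolipid and sterol handling in endosomes and myelin, and ABCA7 for phospholipid export and phagocytosis. Abca5, Abca6, Abca8a, Abca8b and Abca9 form a tandem block of related genes, of which the functions are less settled; ABCA5 is found in lysosomes and late endosomes.

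The sequences before the start sites of Abca1 and Abca5 are shown because these 2 members passed the test between Zbp1-/- and WT after correction for transcript GC content, described below with the values. Both are from RefSeq for GRCm38.p6, 5′ to 3′ along the gene's own strand. The window searched held the 250 bases before the start that the promoter table uses, at 53159895 for Abca1 and 110337716 for Abca5, and motif distances are counted from there. The RefSeq span of the gene reaches further, by 93 bases for Abca1 and 7 for Abca5, so the sequences printed are the part of each window outside it, at chr4:53159989-53160145 and chr11:110337724-110337966 on the minus strand. Capitals mark those of 4 motifs, searched on both strands and none overlapping another, that lie in the printed part. The motifs were the GC box (letters GGGCGG), the TATA box (letters TATAAA), the E-box of palindromic form (letters CACGTG), and a pattern for a pair of receptor binding sites. In this pattern TGACC is followed after 4 further bases by the letters GTAACC, and its parts do not mark where either site or the gap between them begins.
Abca1: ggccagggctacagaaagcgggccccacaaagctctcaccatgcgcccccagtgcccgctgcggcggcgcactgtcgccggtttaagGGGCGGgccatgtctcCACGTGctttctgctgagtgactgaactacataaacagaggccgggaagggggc
Abca5: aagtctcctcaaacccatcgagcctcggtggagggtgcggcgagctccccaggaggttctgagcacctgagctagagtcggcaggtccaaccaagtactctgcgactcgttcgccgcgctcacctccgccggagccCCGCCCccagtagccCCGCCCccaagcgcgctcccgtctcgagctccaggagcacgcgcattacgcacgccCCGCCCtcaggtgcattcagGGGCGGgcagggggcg
The Abca1 window held 2 GC boxes, of which 1 lies whole in the printed part, and 1 E-box. It also held 1 TATA box that began 29 bases before that start and 1 match to the pair of receptor binding sites, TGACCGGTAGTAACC, that began 67 bases before it. The last of these has the spacing of a direct repeat read by liver X receptors, and its letters were chosen with this promoter known, so its presence there is no finding; 12 of 32851 promoter windows (0.0365%) held it. The Abca5 window held 4 GC boxes and none of the other 3 motifs. Among all windows, 32.7% held the GC box, 12.4% the TATA box and 6.02% the E-box. GC content was 61.6% before Abca1 and 69.2% before Abca5. Of the 9 members, 8 had an entry. Windows before the cluster genes Abca8a, Abca8b and Abca9 were 43.2%, 48.8% and 44.4% GC, against 58.8% to 67.6% before Abca2, Abca3 and Abca7. The CCAAT box, by its 5 letters, was searched too, was held by 33.8% of all windows, and was found before neither Abca1 nor Abca5. A repeat of AGGTCA after 4 bases was in 0.0152% of windows and in none of the 8.

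Library totals were 16752835 to 18303036 normalized counts, with 16051 to 16261 genes above 0. Tfam was 278 to 424 normalized counts in the 4 libraries with the Tfam+/- genotype and 471 to 675 in the other 4. Zbp1 was only 3.19 and 7.34 in WT, too low to check the Zbp1-/- label, but 64.6 and 69.8 in Tfam+/- and at most 3.79 in the 4 libraries labelled Zbp1-/-. All 10 fibroblast markers were present, with summed levels of 500519 to 737087, while the sum of 10 macrophage and other leukocyte markers was 2380 to 2411 in WT, 2983 to 3256 in Tfam+/-, 1634 to 1657 in Zbp1-/- and 1265 to 1297 in Tfam+/-Zbp1-/-. Summed markers of other cells were far lower than those of fibroblasts, at 40.2 to 129 for epithelium, 604 to 1765 for skeletal muscle, 180 to 682 for neural and Schwann cells, 961 to 1952 for cartilage and 176 to 301 for adipocytes. In bulk cultures, fewer cells of a type and less RNA per cell cannot be told apart.

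Tfam+/- replicate 1 and Zbp1-/- replicate 2 stood apart from the other 6 libraries, and the members differed in how far they were displaced. These 2 libraries were picked from the same values, so their displacement is described with no test. A term shared by these 2 libraries was -1.11 (log2) for Abca5, -0.55 for Abca9, -0.45 for Abca1 and -0.43 for Abca8b. It was positive for Abca7 at 0.42, for Abca2 at 0.27 and for Abca3 at 0.23. For Abca6 it was -0.21. Genes outside the family were displaced as well, among them the cholesterol synthesis gene Idi1 at -0.95 and Gsn at 0.50, so the displacement was not particular to the members. The displacement followed transcript GC content. Abca5, at 39.8% GC in the lowest 4.4% of tested genes, had the lowest value among the members, and Abca7, at 58.9% GC, the highest. Across the 12733 tested genes with a protein-coding transcript (96.0% of those tested), the shared term correlated with transcript GC at r = 0.782, and genes are not independent replicates. With log2 transcript length the shared term correlated at r = -0.331. The difference between replicates correlated with GC at r = 0.73 in Tfam+/- and 0.709 in Zbp1-/-, but at -0.031 in WT and -0.007 in Tfam+/-Zbp1-/-. The labels give no batch.

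**Figure D1:**
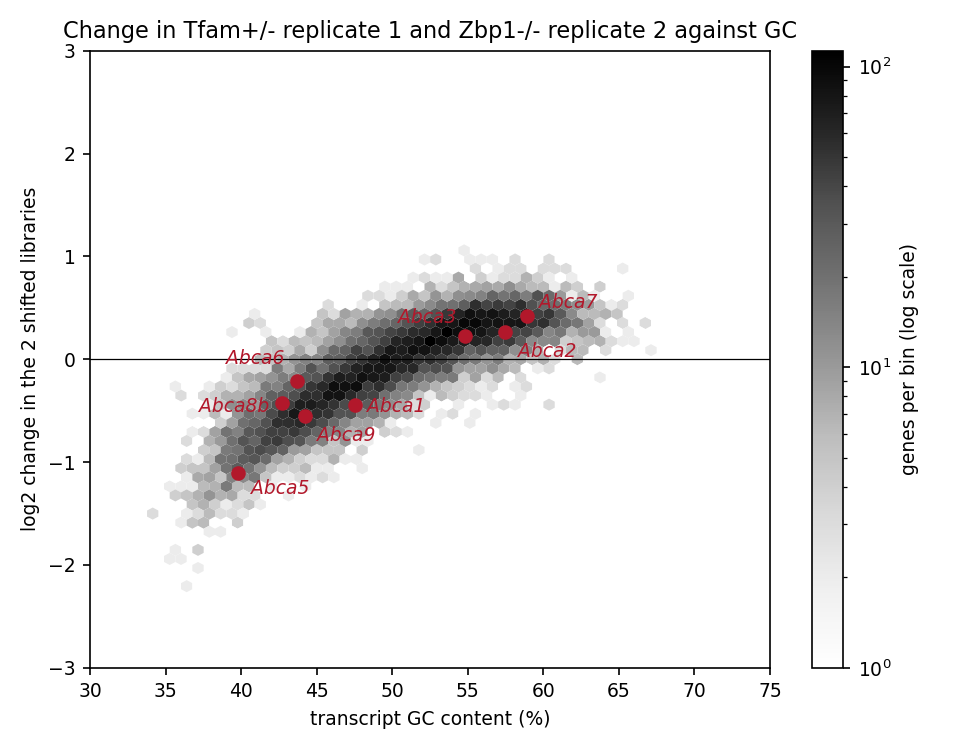
Each grey bin counts genes by transcript GC content (horizontal axis, percent) and by the log2 change shared by Tfam+/- replicate 1 and Zbp1-/- replicate 2 (vertical axis); red points are the 8 tested Abca genes. Abca5, at 39.8% GC, sits lowest among them at -1.11 and Abca7, at 58.9% GC, highest at 0.42, along the slope of all genes.

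Members are therefore reported from 4 fits. The first used the deposited values of all 8 libraries. The others added a term for the 2 displaced libraries, left these 2 out, or subtracted from each library a smooth curve of level against GC. The last was chosen after seeing the data, as were the 2 displaced libraries, and it keeps both libraries of each genotype. Without the 2 libraries, Tfam+/- and Zbp1-/- rest on 1 library each for their level, and that library was assumed to vary like the others. With the term, each of these levels draws on the libraries of both single mutants, and the displacement was assumed to be equal in both. In either fit the spread comes mainly from tight pairs, and these 2 fits call a large share of all genes, which is printed beside the counts.

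Scaled by transcript length, the members differed widely in abundance. Averaged over the 8 libraries, Abca1 had 126 normalized counts per kb of transcript and Abca3 had 116, followed by Abca5 with 68.1, Abca2 with 62.5 and Abca7 with 62.1. Abca9 and Abca8b had 14.9 and 14.4, Abca6 had 5.53 and Abca8a had 1.45. In WT alone the order was Abca1 (106 ± 0.31 per kb, SD, n = 2), Abca3 (102 ± 8.18), Abca5 (59.4 ± 3.66), Abca7 (51.6 ± 1.79), Abca2 (49.9 ± 2.59), Abca9 (15.98 ± 2.63), Abca8b (12.5 ± 3.40), Abca6 (9.34 ± 0.53) and Abca8a (1.69 ± 0.93). Abca1 and Abca3, Abca7 and Abca2, Abca9 and Abca8b, and Abca8b and Abca6 were neighbours in that order whose means differed by less than the sum of their SDs. The cluster genes Abca9, Abca8b, Abca6 and Abca8a were thus below every member outside the cluster, and Abca5, the fifth gene of the cluster, was not. Of the other mouse Abca genes, Abca4 was 8.99 to 17.3 normalized counts, Abca12 1.93 to 10.9, Abca13 0.97 to 7.19 and Abca17 0 to 2.15, and Abca14, Abca15 and Abca16 were listed at 0 in every library.

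**Figure D2:**
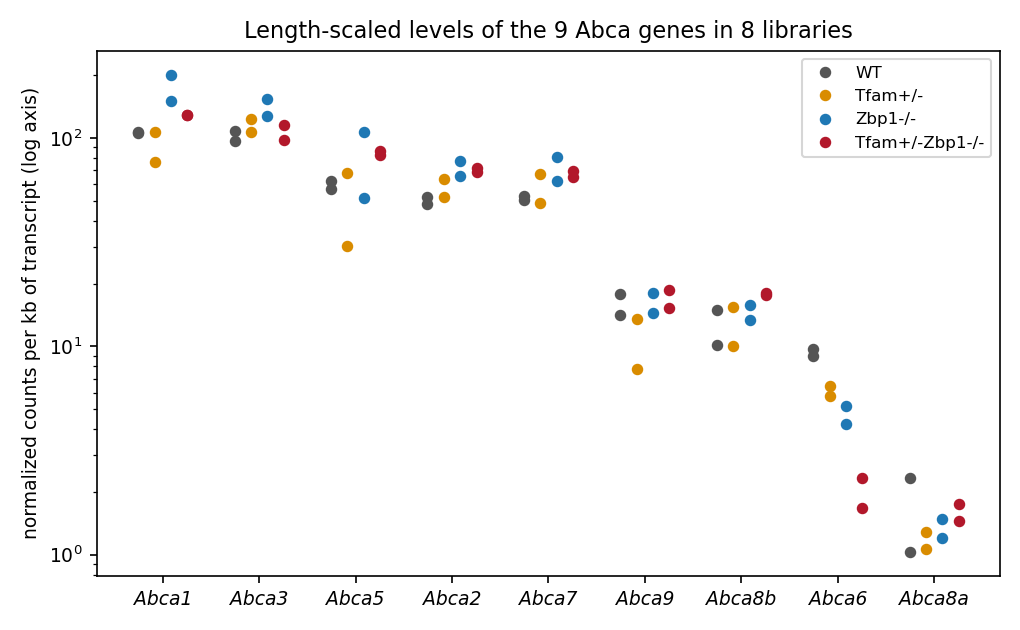
Normalized counts per kb of transcript (vertical log axis) for the 9 Abca genes, ordered by mean level, with 1 point for each of 8 libraries coloured by genotype. Abca1 and Abca3 lie highest and Abca8a lowest, and only Abca6 is spread with WT at the top (9.34 per kb on average) and Tfam+/-Zbp1-/- at the bottom.

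Abca1, on chromosome 4 (53030789 to 53159988, minus strand, GRCm38.p6), was highest in cells lacking Zbp1 alone. It had 1094 and 1090 normalized counts in the WT libraries, 785 and 1096 in the Tfam+/- ones, 2067 and 1548 in the Zbp1-/- ones and 1330 and 1319 in the double mutant. Both Zbp1-/- libraries were above the other 6, both double mutant libraries were above both WT libraries, and Tfam+/- overlapped WT. Groups of 2 also did not overlap for 58.9% of all tested genes in Zbp1-/- against WT and 72.9% in the double mutant against WT. In the deposited values the log2 difference between Zbp1-/- and WT was 0.71 ± 0.19 (SE), which missed the threshold (limma, adjusted p 0.149). After GC correction it was 0.71 ± 0.11 and passed (limma, adjusted p 0.00967), with 1950 and 1643 corrected counts against 1094 and 1090 in WT. It was 0.94 ± 0.05 with the term for the 2 displaced libraries (limma, adjusted p 3.67e-11) and 0.92 ± 0.05 without them (adjusted p 3.2e-10).

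The higher Abca1 level of Zbp1-/- cells was not matched when 1 Tfam allele was also missing. The double mutant was below Zbp1-/- by a log2 difference of -0.43 ± 0.19 in the deposited values (limma, adjusted p 0.439). After GC correction the difference was -0.54 ± 0.11 (limma, adjusted p 0.028), and it was -0.66 ± 0.05 with the term (adjusted p 8.12e-09) and -0.64 ± 0.05 in the 6 libraries (adjusted p 4.78e-08). The deposited value was -0.23 without Zbp1-/- replicate 1 and -0.64 without Zbp1-/- replicate 2. The change with the Tfam+/- genotype in WT cells was -0.23 ± 0.19 (limma, adjusted p 0.577). The difference between these changes, the interaction, was -0.20 ± 0.28 in the deposited values (limma, adjusted p 0.639), -0.40 ± 0.16 after GC correction (adjusted p 0.185) and -0.65 ± 0.07 with the term (adjusted p 4.06e-06). Its size with the term is the same in the 6 libraries by construction, and whether the change differs with Zbp1 genotype thus depended on the fit.

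Abca5, at the end of the cluster on chromosome 11 (110269369 to 110337723), was the member whose reading depended most on the 2 displaced libraries. It had 510.2 and 468 normalized counts in the WT libraries, 250.06 and 561 in the Tfam+/- ones, 880.1 and 423 in the Zbp1-/- ones and 713 and 678 in the double mutant. The low values of 250.06 and 423 are those of the displaced libraries, and Zbp1-/- overlapped every other genotype. After GC correction the same libraries read 441 and 397 in the WT libraries, 414 and 508 in the Tfam+/- ones, 751 and 649 in the Zbp1-/- ones and 596 and 567 in the double mutant. In these corrected values WT and Tfam+/- overlapped, the double mutant lay above both, and Zbp1-/- was highest.

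The log2 difference of Abca5 between Zbp1-/- and WT was 0.32 ± 0.44 in the deposited values (limma, adjusted p 0.656) and 0.74 ± 0.12 after GC correction (adjusted p 0.0113). It was 0.88 ± 0.07 with the term (limma, adjusted p 4.49e-08) and 0.85 ± 0.07 in the 6 libraries (adjusted p 1.87e-07). Against Zbp1-/-, the double mutant was 0.19 ± 0.44 in the deposited values (limma, adjusted p 0.84), but -0.26 ± 0.12 after GC correction (adjusted p 0.252), -0.37 ± 0.07 with the term (adjusted p 0.00125) and -0.34 ± 0.07 in the 6 libraries (adjusted p 0.00296). The sign of this comparison turned in each of these 3 fits. The GC correction did not remove the whole displacement: across genes, the replicate differences of Tfam+/- and Zbp1-/- correlated at 0.695 before it and 0.322 after it. In these 3 fits, Abca1 and Abca5 shared an order, Zbp1-/- first and the double mutant next. Abca5 was the member most like Abca1, with log2 levels that correlated at r = 0.78 over 8 libraries and 0.92 over the 6, as a description of libraries that share their GC shift.

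**Figure D3:**
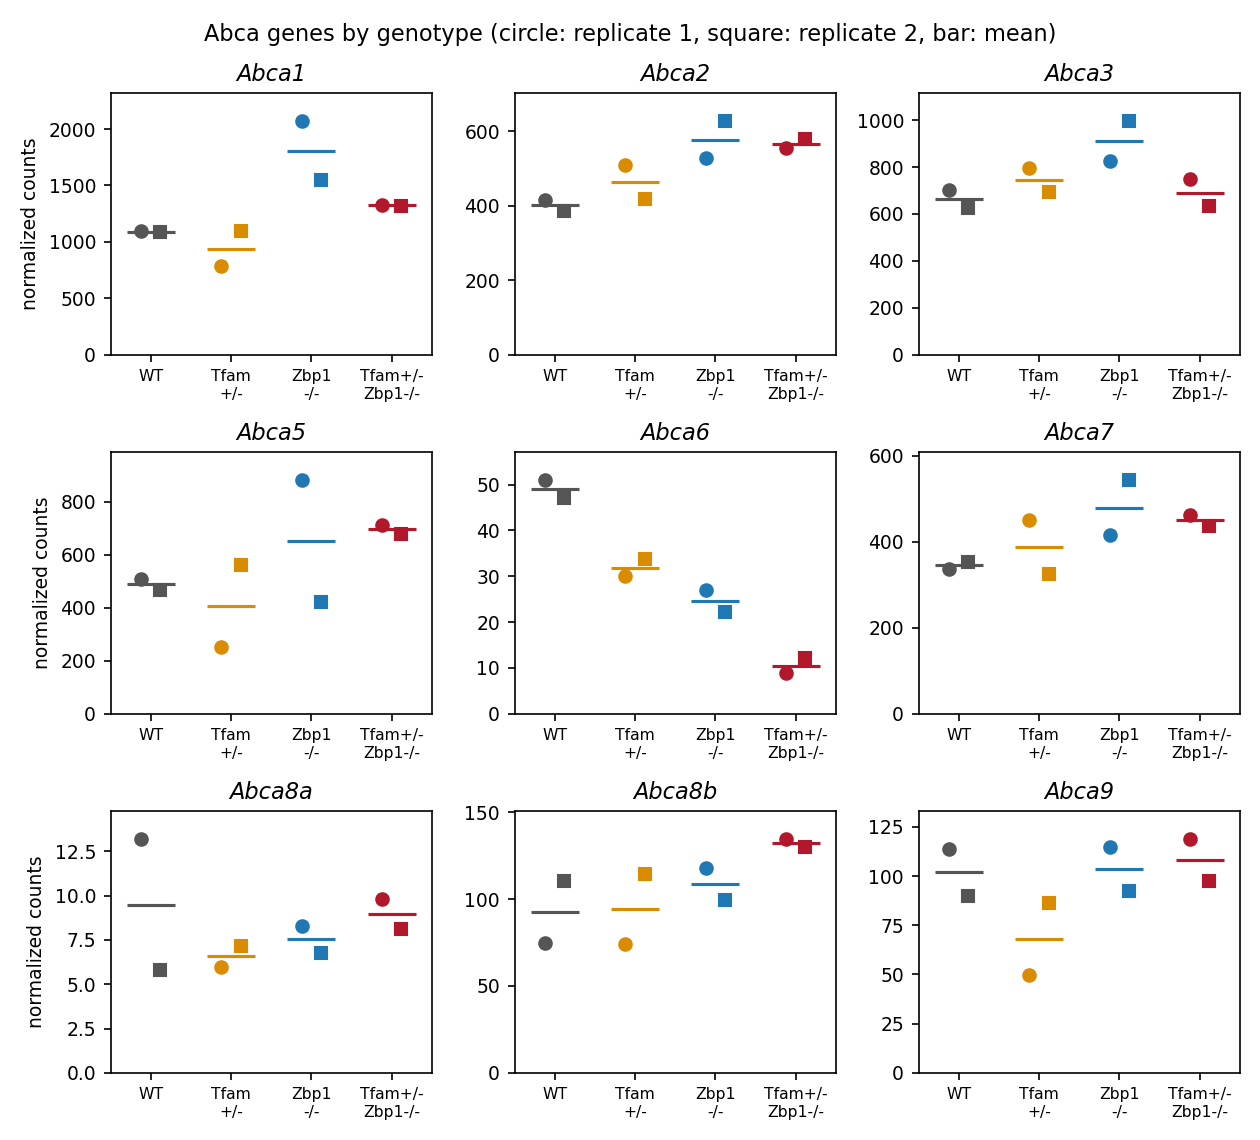
Normalized counts (vertical axes, each from 0) of the 9 Abca genes in the 4 genotypes, with a circle for replicate 1, a square for replicate 2 and a bar at the mean. Abca6 steps down from 50.9 and 47.0 in WT to 8.81 and 12.2 in Tfam+/-Zbp1-/- without overlap, Abca1 is highest in Zbp1-/-, and the replicates of Abca5 are far apart in Tfam+/- and in Zbp1-/-.

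Abca2 and Abca7, both GC-rich and expressed at like levels per kb, moved together. Abca2 (chromosome 2, 25428599 to 25448544, plus strand) had 416 and 387 normalized counts in the WT libraries, 509 and 417 in the Tfam+/- ones, 528 and 626 in the Zbp1-/- ones and 553 and 579 in the double mutant. Abca7 (chromosome 10, 79996453 to 80015572, plus strand) had 337 and 354 in the WT libraries, 450.3 and 326 in the Tfam+/- ones, 417 and 543 in the Zbp1-/- ones and 463 and 437 in the double mutant. All 4 libraries lacking Zbp1 were above both WT libraries for either gene, and the highest value of each was in displaced Zbp1-/- replicate 2. Their log2 levels correlated at r = 0.93 over 8 libraries and 0.92 over the 6. The microRNA gene Mir3087 lies within Abca2.

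Between Zbp1-/- and WT the log2 difference was 0.52 ± 0.15 for Abca2 (limma, adjusted p 0.155) and 0.46 ± 0.19 for Abca7 (adjusted p 0.252), where the median of all genes tested was 0.11. After GC correction they were 0.17 ± 0.08 (limma, adjusted p 0.241) and 0.08 ± 0.07 (adjusted p 0.521). With the term they were 0.39 ± 0.07 (limma, adjusted p 0.000533) and 0.25 ± 0.08 (adjusted p 0.0206). Abca2 in the double mutant was above Tfam+/- by 0.30 ± 0.15 in the deposited values (limma, adjusted p 0.303) and by 0.30 ± 0.08 after GC correction, which passed (adjusted p 0.0347). Abca7 in the same comparison was 0.23 ± 0.19 (limma, adjusted p 0.505) and 0.23 ± 0.07 after correction (adjusted p 0.0747).

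Abca3 (chromosome 17, 24351921 to 24410204, plus strand) varied least of the members relative to its level. It had 700.3 and 625 normalized counts in the WT libraries, 796 and 694 in the Tfam+/- ones, 827 and 994 in the Zbp1-/- ones and 747 and 634 in the double mutant. Both Zbp1-/- libraries were above the other 6, and the double mutant overlapped WT. The log2 difference between Zbp1-/- and WT was 0.45 ± 0.15 in the deposited values (limma, adjusted p 0.192) and 0.17 ± 0.09 after GC correction (adjusted p 0.327). Against Zbp1-/-, the double mutant was at -0.40 ± 0.15 (limma, adjusted p 0.357), and at -0.27 ± 0.09 after correction (adjusted p 0.146). With the term it was -0.28 ± 0.08 and passed (limma, adjusted p 0.014). Abca3 overlaps Abca17 and D330041H03Rik on the genome, so its reads are uncertain to the extent that these are transcribed.

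Abca6 (chromosome 11, 110174638 to 110251776, minus strand) was a low-abundance transcript that stepped down through the genotypes. It had 50.9 and 47.0 normalized counts in the WT libraries, 30.1 and 33.7 in the Tfam+/- ones, 27.0 and 22.3 in the Zbp1-/- ones and 8.81 and 12.2 in the double mutant. No genotype overlapped the next. The log2 difference between the double mutant and WT was -2.13, the 8th lowest of 13267 genes tested, and this is the value by which Abca6 was chosen. It was -1.53 from Tfam+/- and -1.17 from Zbp1-/-. After GC correction these 3 differences were -2.20, -1.88 and -1.43. The corrected levels were 47.5 and 43.4 in the WT libraries, 40.9 and 32.0 in the Tfam+/- ones, 24.4 and 28.2 in the Zbp1-/- ones and 7.70 and 10.7 in the double mutant, again with no overlap.

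The single mutants were not part of that choice, although they are compared with the same WT libraries. Any excess in WT that favoured the choice thus enters these differences too. Abca6 differed from WT by -0.60 ± 0.25 in Tfam+/- (limma, adjusted p 0.557; unadjusted p 0.0451) and by -0.97 ± 0.25 in Zbp1-/- (adjusted p 0.131; unadjusted p 0.00605). Neither passed the test, and the 95% intervals were -1.19 to -0.02 and -1.55 to -0.38. After GC correction the differences were -0.32 ± 0.25 (limma, adjusted p 0.513) and -0.77 ± 0.25 (adjusted p 0.108). With the term the Zbp1-/- difference was -0.86 ± 0.32 and passed (limma, adjusted p 0.0418), and in the 6 libraries it was -0.84 ± 0.34 and did not (adjusted p 0.0705). Described on the log2 scale, the departure of the double mutant from the sum of both single changes was -0.56 in the deposited values and -1.11 after GC correction.

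The rest of the cluster did not share the pattern of Abca6. In transcript order along the minus strand the 5 genes run Abca5, Abca6, Abca9, Abca8a and Abca8b. Abca9 (chromosome 11, 110100749 to 110168274), next to Abca6, had 114 and 90.1 normalized counts in the WT libraries, 49.5 and 86.2 in the Tfam+/- ones, 115 and 92.3 in the Zbp1-/- ones and 119 and 97.7 in the double mutant. Both Tfam+/- libraries were below all others, and the double mutant overlapped WT. The difference of Tfam+/- from WT was -0.63 ± 0.29 (limma, adjusted p 0.559) and -0.37 ± 0.18 after GC correction (adjusted p 0.334), and the double mutant was above Tfam+/- by 0.71 ± 0.29 (adjusted p 0.229) and 0.38 ± 0.18 after correction (adjusted p 0.201).

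Abca8b (chromosome 11, 109932206 to 109996274) had 74.9 and 111 normalized counts in the WT libraries, 74.3 and 114 in the Tfam+/- ones, 118 and 99.5 in the Zbp1-/- ones and 134 and 130.2 in the double mutant. Both double mutant libraries were above the other 6, but not after GC correction, with 117 and 114 against 131 in Zbp1-/- replicate 2. The log2 difference from Tfam+/- was 0.52 ± 0.27 (limma, adjusted p 0.323), and 0.12 ± 0.19 after GC correction (adjusted p 0.725). Abca8a (chromosome 11, 110025634 to 110097580) had 13.2 and 5.80 in the WT libraries, 5.97 and 7.19 in the Tfam+/- ones, 8.31 and 6.76 in the Zbp1-/- ones and 9.80 and 8.14 in the double mutant. The range within WT spanned all other libraries of Abca8a, so no difference was detectable at this level. Abca8a and Abca8b share 1.89% and 1.42% of their transcripts' 50-base windows, so short matching stretches could be split between them.

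**Figure D4:**
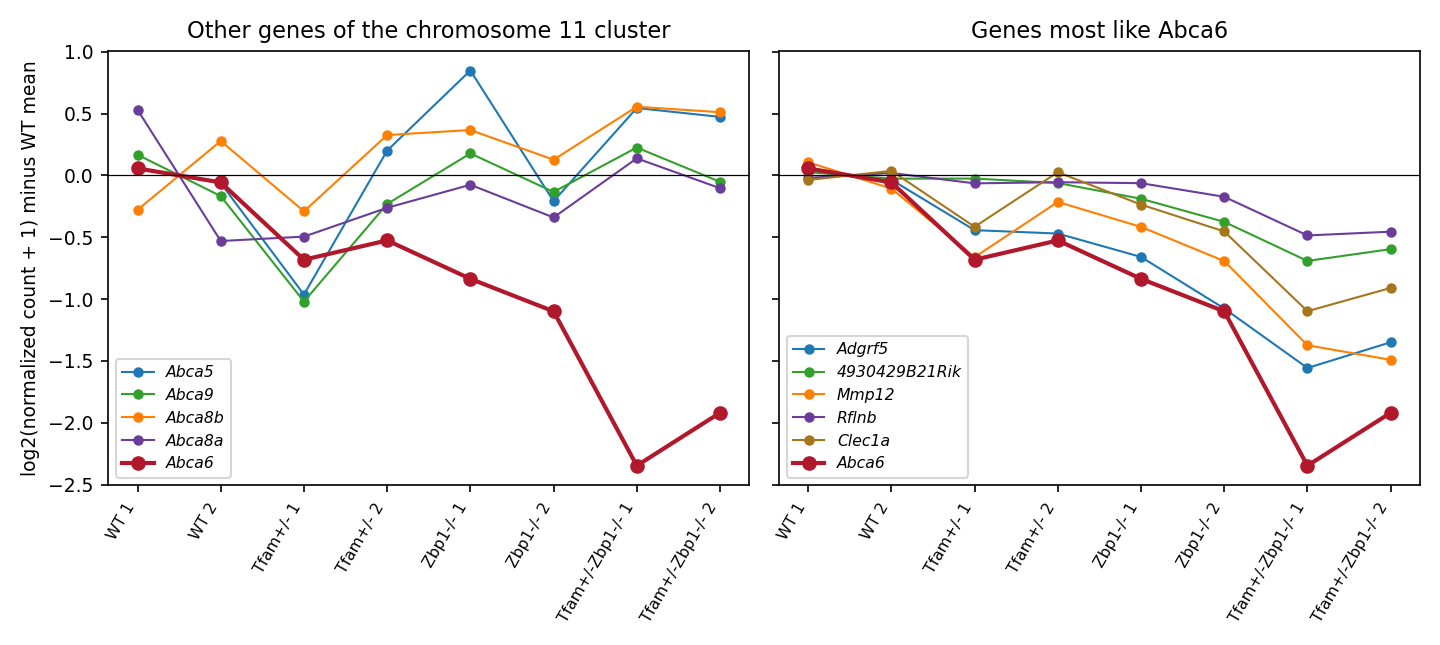
Log2(normalized count + 1) minus the WT mean (vertical axis) in each of 8 libraries, for Abca6 (red) with the other 4 genes of its cluster (left) and with the 5 genes whose levels were most like it (right). Abca6 ends at -2.13 on average in Tfam+/-Zbp1-/-, where its 4 cluster neighbours lie near or above their WT level in most libraries and the 5 similar genes lie below it.

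No other tested member tracked Abca6. Its highest correlation with a tested member was r = -0.12, with Abca3, and its correlation with Abca2 was -0.76 over 8 libraries. Abca8a, too low to enter the tests, was left out of these correlations. Of the genes within 500 kb of the cluster, 8 were tested, among them the kinase gene Map2k6, the monocarboxylate transporter gene Slc16a6 and Prkar1a, the regulatory subunit of protein kinase A. None was called in any of the 6 comparisons of deposited values, where 0.415% to 5.64% of all genes were called, so few calls among 8 genes could be looked for. With the term, 3 rose in Zbp1-/- against WT (35.6% of all genes called) and 2 fell in the double mutant against Zbp1-/- (23.8%). With the term, 1 also rose in the double mutant against Tfam+/- (45.6%) and 1 against WT (42.5%). Their log2 differences between the double mutant and WT ran from -0.62 for Slc16a6 to 0.48 for Map2k6. Slc16a6 had 41.3 and 42.3 normalized counts in the WT libraries, 28.5 and 41.3 in the Tfam+/- ones, 30.4 and 25.9 in the Zbp1-/- ones and 28.4 and 25.4 in the double mutant.

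The 5 genes outside the family with levels most like Abca6 over the 8 libraries were Adgrf5, 4930429B21Rik, Mmp12, Rflnb and Clec1a. Pearson's r of log2 levels was 0.98 for Adgrf5, 0.97 for 4930429B21Rik and 0.96 for each of Mmp12, Rflnb and Clec1a, picked as the highest of all genes tested and given as a description. Adgrf5, an adhesion G protein-coupled receptor gene known from endothelium and lung epithelium, had 153 and 146 normalized counts in the WT libraries, 109 and 107 in the Tfam+/- ones, 94.1 and 70.2 in the Zbp1-/- ones and 50.03 and 57.9 in the double mutant. Mmp12, which encodes macrophage elastase, had 73.9 and 63.6 in WT and 25.9 and 23.8 in the double mutant. Among endothelial markers, Pecam1, Cdh5 and Tie1 reached at most 7.48 in any library and Cldn5 was listed at 0, while the other 2 differed from each other. Emcn was 65.5 and 57.0 in the WT libraries, 70.4 and 73.5 in the Tfam+/- ones, 37.8 and 40.1 in the Zbp1-/- ones and 18.9 and 15.7 in the double mutant. Kdr, the most abundant, had 213 and 229 in the WT libraries, 297 and 332 in the Tfam+/- ones, 187 and 148 in the Zbp1-/- ones and 225 and 207 in the double mutant, where it overlapped WT. The summed endothelial markers were 284 and 290 in the WT libraries, 371 and 411 in the Tfam+/- ones, 228 and 197 in the Zbp1-/- ones and 248 and 228 in the double mutant. The leukocyte sum was, like Abca6, lowest in the double mutant, but unlike Abca6 it was highest in Tfam+/-. The part of either cell type in the Abca6 levels was not tested.

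Counted over the deposited values, 0 of the 8 tested members were called in Tfam+/- against WT, where 0.731% of all genes were called, and 0 in Zbp1-/- against WT, where 1.06% were. In Zbp1-/- against WT, 5 of the 8 had an unadjusted limma p under 0.05 (Abca1, Abca2, Abca3, Abca6 and Abca7), as did 2619 of all 13267 genes. Of these members, Abca6 shares its WT libraries with the comparison that chose it. In Tfam+/-Zbp1-/- against WT 1.38% of all genes were called, and no member's call is read there, since that comparison chose Abca6. Leaving Abca6 aside, 0 of 7 were called in Tfam+/-Zbp1-/- against Tfam+/- (5.64% of all genes), against Zbp1-/- (0.415%) or in the interaction (0.663%). Groups of 2 did not overlap for 5 members in Zbp1-/- against WT, 4 higher and 1 lower, but 58.9% of all tested genes did not overlap there either. That share was 48.8% in Tfam+/- against WT and 72.9% in the double mutant against WT. It was 55.9% in the double mutant against Tfam+/- and 49.5% against Zbp1-/-, so separate groups of 2 were common among all genes. The median member difference was -0.11 in Tfam+/- against WT (all genes -0.01), 0.39 in Zbp1-/- against WT (0.11), 0.41 in the double mutant against Tfam+/- (0.14) and -0.05 against Zbp1-/- (0.02). These medians are of all 8 tested members, Abca6 included, and are given as a description.

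After GC correction, 2 of 8 members were called in Zbp1-/- against WT, Abca1 and Abca5, where 7.99% of all genes were called. Abca2 was called in the double mutant against Tfam+/- (17.8% of all genes) and Abca1 against Zbp1-/- (7.39%), both leaving Abca6 aside. No member was called in Tfam+/- against WT (3.59% of all genes) or, leaving Abca6 aside, in the interaction (6.36%). The corrected background of the double mutant against WT was 7.68%.

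With the term and leaving Abca6 aside, 5 of 7 members were called in Zbp1-/- against WT, where 35.6% of all genes were called. These were Abca1, Abca2, Abca3, Abca5 and Abca7, all higher. Abca6 was called lower there, at -0.86, and is kept apart since its WT libraries are those of the comparison that chose it. In the 6 libraries the same members without Abca6 were called, with 34.3% of all genes. In the double mutant against Tfam+/-, Abca1, Abca2, Abca5 and Abca7 were called higher in both fits (45.6% of all genes with the term and 43.6% in the 6 libraries). Against Zbp1-/-, Abca1, Abca3 and Abca5 were called lower in both (23.8% and 23.4%), and Abca1 and Abca5 were called in the interaction (16.9% and 19.1%). No member was called in Tfam+/- against WT in either fit (15.6% and 15.4%), and the background of the double mutant against WT was 42.5% and 44.8%.

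**Figure D5:**
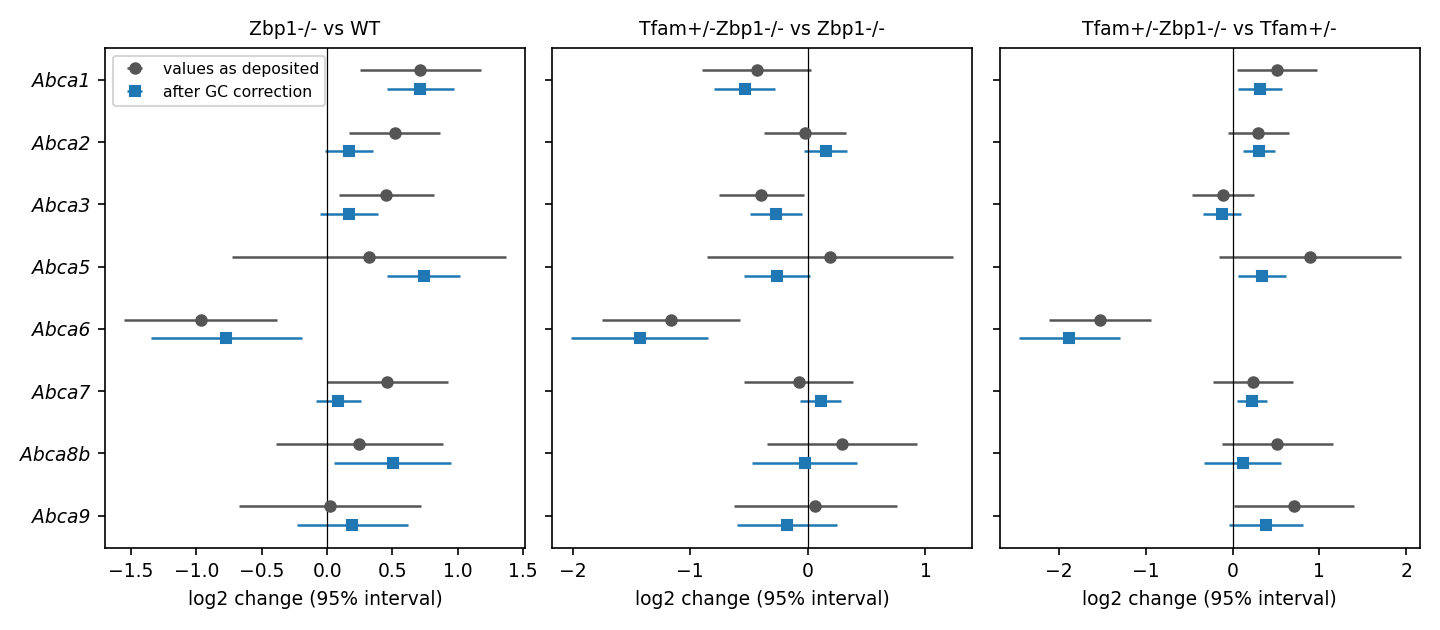
Log2 differences with 95% intervals (horizontal axes) for the 8 tested Abca genes in 3 comparisons, from deposited values (grey circles) and after GC correction (blue squares). For Abca5 in Zbp1-/- against WT the value goes from 0.32 with a wide interval to 0.74 with a narrow one, while Abca2, Abca3 and Abca7 draw closer to 0; the Abca6 values in the 2 comparisons with Tfam+/-Zbp1-/- are shown as a description.

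Of 16 liver X receptor and sterol efflux genes 15 were tested, and in the deposited values 0 were called in Zbp1-/- against WT (1.06% of all genes), with a median log2 difference of 0.29 where all genes had 0.11. In the 6 libraries 10 rose and 1 fell there, with 34.3% of all genes called. In the double mutant against Tfam+/-, where 5.64% of all genes were called, 1 rose and 2 fell. Mylip, which encodes an E3 ligase for lipoprotein receptors, rose by 0.70 (limma, adjusted p 0.00985). Abcg1, a cholesterol transporter that acts beside ABCA1, fell by 1.32 (adjusted p 0.0097) and Apoe, a lipid carrier made in quantity by macrophages, fell by 1.65 (adjusted p 0.00728), and 7 of the 10 leukocyte markers were called lower in that same comparison, with its 5.64% of all genes. Abcg1 had 50.6 and 60.1 normalized counts in the WT libraries, 114 and 96.6 in the Tfam+/- ones, 66.5 and 65.2 in the Zbp1-/- ones and 44.1 and 38.9 in the double mutant, an order unlike that of Abca1. Apoe had 1389 and 1567 in the WT libraries, 3388 and 2270 in the Tfam+/- ones, 1161 and 1447 in the Zbp1-/- ones and 876 and 891 in the double mutant. Mylip was nearer to Abca1, with 564 and 570.3 in the WT libraries, 425 and 419 in the Tfam+/- ones, 739 and 739 in the Zbp1-/- ones and 683 and 692 in the double mutant. The part of leukocyte content in the Abcg1 and Apoe differences was not tested.

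Of 12 SREBP2 targets, the cholesterol synthesis and uptake genes, 12 were tested and 0 were called in any of the 6 comparisons of deposited values, with a median of 0.21 in Zbp1-/- against WT, where 9 rose in the 6 libraries (34.3% of all genes called). Of 8 ABC lipid or sterol transporters outside the A family, 7 were tested and 0 were called in any of the 6, while in the 6 libraries 2 rose and 1 fell in Zbp1-/- against WT (34.3%). Across the 6 comparisons of deposited values, 0.415% to 5.64% of all genes were called. Genes of adventitial fibroblasts, the connective tissue cells around vessels, were also listed. Of 14, 12 were tested and 3 rose in Zbp1-/- against WT (1.06% of all genes called), with a list median of 0.67 against 0.11 for all genes, and 10 rose there in the 6 libraries (34.3%). The 3 were Dpt, which encodes an extracellular matrix protein, by 1.25 (limma, adjusted p 0.0167), the scavenger receptor gene Scara5 by 1.51 (adjusted p 0.0344) and the growth factor receptor gene Pdgfra by 0.80 (adjusted p 0.0386). In the double mutant against Zbp1-/-, Dpt fell by 1.21 (limma, adjusted p 0.0351) and Col14a1, a fibril-associated collagen, fell by 1.14 (adjusted p 0.0386), where 0.415% of all genes were called. Dpt, Col14a1, Scara5, Pdgfra and Abca1 were all highest in Zbp1-/-. In the double mutant Dpt overlapped WT and Col14a1 was below it, while Scara5 and Pdgfra were above WT, as Abca1 was. Scara5 had 87.9 and 80.4 normalized counts there against at most 36.9 in WT, and Pdgfra had 3724 and 4216 against at most 3497. Of the 12 tested, 9 had a log2 difference above 0 between the double mutant and WT, as did 10059 of all 13267 genes, a like share. The list median was 0.15 there, against 0.12 for all genes. The part of a shift between fibroblast types in the Abca1 level was not tested.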

How the data were processed

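RNA from 8 libraries of cultured embryonic fibroblasts was sequenced. Reads were aligned to mm10 with STAR in BaseSpace, per the series' design text, and STAR 2.6.1a and Salmon are named per the submitters' processing notes. The authors deposited normalized counts, a gene-level signal of 0 or above with decimals. How reads were counted and scaled, and whether strand was used, is not given in the sources used, so genes that overlap or have near-identical copies are uncertain. Whole reads could not be recovered and no count model was run, so the depth behind single values is unknown.

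Every gene with a mean of at least 10 normalized counts (13267) was tested on log2(normalized count + 1), a scale that understates changes of low genes, with limma 3.58.1 in R 4.3.3 (lmFit, eBayes with trend; 4 residual and 2.77 prior degrees of freedom). Tests were two-sided, and calls needed an adjusted p (Benjamini-Hochberg, over all genes) below 0.05. Errors of log2 differences are standard errors. The interaction is the double mutant minus Zbp1-/-, less the difference of Tfam+/- and WT. An exact permutation test of 2 against 2 cannot go below 0.333. The GC correction subtracted, in each library, a lowess curve (span 0.3) of centred log2 level against transcript GC (GENCODE M21, protein-coding). The fit of all 8 libraries and the GC correction were tried on simulated data. The fit with the term and that of the 6 libraries were not.

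Members, lists and comparisons were chosen with earlier results of these data known. Genes named beside the members are the other Abca genes, genes within 500 kb of the cluster, listed genes called in at least 1 comparison, cell type markers, and the 5 genes most correlated with Abca6. Coordinates and promoters are from RefSeq GRCm38.p6, 1-based; 97.7% of symbols matched. Settings also tried were a pseudocount of 5 or 0.1, no filter or a minimum mean of 50, trimmed-mean (M-value) rescaling, a prior without trend, only the genotypes compared, a replicate block, each library left out, a term for the displaced libraries, the 6 other libraries and the GC correction.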

Additional observations from a re-analysis of the deposited data

Results flagged for a closer look

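The change of Abca1 with the Tfam+/- genotype differed with Zbp1 genotype by an interaction of -0.65 on the log2 scale, with a term for the 2 displaced libraries (limma, adjusted p 4.06e-06) and in the 6 other libraries (adjusted p 3.14e-06). The change of Abca5 differed by -0.54, with the term (limma, adjusted p 0.00273) and in the 6 libraries (adjusted p 0.00145). Both values rest on Tfam+/- replicate 2 and Zbp1-/- replicate 1 alone for the single mutants, and both fits give the same size by construction. With both libraries of each genotype, the interaction was -0.20 for Abca1 (limma, adjusted p 0.639) and 0.57 for Abca5 (adjusted p 0.554) in the deposited values, and -0.40 for each after GC correction (adjusted p 0.185 and 0.216).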

How the results depend on the processing

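Low levels limit Abca6, Abca8a, Abca8b and Abca9, and 2 libraries per genotype limit every member. The count of 6 given next for Zbp1-/- against WT with the term includes Abca6, which shares its WT libraries with the comparison that chose it. Leaving Abca6 aside, that count is 5. Members called in Zbp1-/- against WT went from 0 to 6 with the term for the displaced libraries, 5 in the 6 other libraries and 2 after GC correction (35.6%, 34.3% and 7.99% of all genes). In Tfam+/-Zbp1-/- against Tfam+/- they went from 0 to 4, 4 and 1 (45.6%, 43.6% and 17.8%), against Zbp1-/- from 0 to 3, 3 and 1 (23.8%, 23.4% and 7.39%), and in the interaction from 0 to 2 and 2 (16.9% and 19.1%), with 0 after GC correction (6.36%). In Tfam+/-Zbp1-/- against WT, the comparison that chose Abca6 and from which nothing is read, the count was 1, and became 6 with the term (42.5% of all genes), in the 6 libraries (44.8%) and with only the genotypes compared (44.7%). It was 0 with a mean of at least 50, which Abca6 did not reach, and 0 to 1 when 1 library was left out. Abca5 in Tfam+/-Zbp1-/- against Zbp1-/- turned from 0.19 to -0.37 with the term, -0.34 in the 6 libraries and -0.26 after GC correction, and its interaction from 0.57 to -0.54, -0.54 and -0.40. Abca8b in Tfam+/-Zbp1-/- against Zbp1-/- turned from 0.29 to -0.028 after GC correction. Leaving out 1 library moved Abca5 from -0.21 to 0.85 in Zbp1-/- against WT, from -0.34 to 0.72 in Tfam+/-Zbp1-/- against Zbp1-/- and from -0.012 to 1.15 in the interaction. It moved the Abca1 interaction from -0.44 to 0.041 and Abca7 in Tfam+/-Zbp1-/- against Tfam+/- from -7e-04 to 0.46. The cause of the displacement, which followed transcript GC content, was not tested. Trimmed-mean (M-value) rescaling changed the reading of none of the 31 member differences recomputed with it. Those with a test kept their sign and their side of the threshold. Those given as a description moved by less than the SD between replicates. The rescaling took the all-gene median in Zbp1-/- against WT from 0.11 to 0.01 and the Abca1 difference from 0.71 to 0.61.

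The replicate number was fitted as a block although the numbers do not pair these libraries: same-numbered deviations correlated at -0.70 to 0.06 across pairs of genotypes. With the block, 0 members were called in each of the 6 comparisons.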
